A study of Mus musculus with 4 samples.

Results

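The genes described here are 10 enzymes of glycolysis: Hk2, Pfkl, Pfkp, Aldoa, Tpi1, Pgk1, Pgam1, Eno1, Pkm and Ldha. They were chosen by name and matched by symbol to 11 of the 32285 feature rows, since Aldoa has 2 rows. These were added together, the second holding 258 UMIs (unique molecular identifiers, each standing for 1 captured mRNA molecule) against 492262 in the first. The cells came from 2153L tumours, a mammary tumour from a genetically engineered mouse model, grown as transplants in the mammary fat pads of Balb/c females. Leukocytes sorted for CD45 were sequenced cell by cell with a 10x Chromium 3′ kit in 4 libraries. The first came from vehicle-treated mice, the second from mice given ORIN1001 at 150 mg/kg, the third from mice given 20 mg/kg of docetaxel, and the last, called the combination here, from mice given both, with treatment lasting 8 days. ORIN1001 inhibits the RNase of the stress sensor IRE1α, and docetaxel stabilises microtubules. Each group was 1 library, and how many mice made up a library is unknown from the labels. All groups shared the tumour, the host and the sort. There was therefore no spread between animals, no test was made, and every interval in brackets is a 95% interval that covers counting error only.

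Glycolysis splits glucose into pyruvate in the cytosol and yields ATP without oxygen. Lactate dehydrogenase then turns pyruvate into lactate, which renews the NAD+ that the pathway needs. Neutrophils hold few mitochondria and live largely on glycolysis, and in cells short of oxygen the transcription factor HIF-1 raises the genes of many of these enzymes by binding short core sequences, ACGTG or GCGTG, near their start sites.

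All members are protein-coding genes of the nuclear genome, and their positions are those of GENCODE release M21 (mm10). Hk2 lies at chr6:82725025-82774454, Pfkl at chr10:77986947-78010083, Pfkp at chr13:6579768-6648777, Aldoa at chr7:126795234-126800751 and Tpi1 at chr6:124810586-124814296, all on the minus strand. On the plus strand lie Pgk1 at chrX:106187100-106203699, Pgam1 at chr19:41911923-41918660, Eno1 at chr4:150236721-150248879, Pkm at chr9:59656368-59679375 and Ldha at chr7:46841475-46855627. The second Aldoa row, ENSMUSG00000114515, lies beside the first at chr7:126800790-126809108. Eno1 has a near-identical copy, Eno1b, which was counted as a gene of its own with 10751 UMIs against 498207 for Eno1, so the split of reads between them is uncertain.

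The promoters of 5 members are shown because these genes had the largest ratios between the combination and vehicle in neutrophils. Each line holds the 250 bases before the RefSeq start (GRCm38.p6, a C57BL/6J genome, while the hosts were Balb/c), read 5′ to 3′ on the gene's strand, with every ACGTG or GCGTG on either strand in capitals.
Hk2 (chr6:82774455-82774704, minus strand): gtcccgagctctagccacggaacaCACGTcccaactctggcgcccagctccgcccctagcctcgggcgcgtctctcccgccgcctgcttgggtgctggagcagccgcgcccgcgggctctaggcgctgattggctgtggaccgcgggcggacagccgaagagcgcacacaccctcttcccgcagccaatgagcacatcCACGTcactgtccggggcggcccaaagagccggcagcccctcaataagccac
Pfkl (chr10:78009808-78010057, minus strand): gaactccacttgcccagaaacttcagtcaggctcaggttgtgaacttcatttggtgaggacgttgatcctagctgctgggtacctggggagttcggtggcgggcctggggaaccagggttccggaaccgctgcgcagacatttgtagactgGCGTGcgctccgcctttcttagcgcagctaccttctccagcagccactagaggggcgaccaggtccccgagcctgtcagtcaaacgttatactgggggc
Tpi1 (chr6:124814159-124814408, minus strand): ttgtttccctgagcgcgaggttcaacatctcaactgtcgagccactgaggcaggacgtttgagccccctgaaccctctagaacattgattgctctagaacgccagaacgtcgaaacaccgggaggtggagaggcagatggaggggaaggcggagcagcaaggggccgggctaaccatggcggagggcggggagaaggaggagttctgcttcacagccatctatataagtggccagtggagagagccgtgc
Pgk1 (chrX:106186850-106187099, plus strand): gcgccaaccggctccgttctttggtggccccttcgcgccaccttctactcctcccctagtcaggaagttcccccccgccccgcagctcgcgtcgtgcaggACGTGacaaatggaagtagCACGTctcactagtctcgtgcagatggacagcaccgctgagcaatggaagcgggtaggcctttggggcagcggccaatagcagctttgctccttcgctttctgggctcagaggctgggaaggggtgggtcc
Ldha (chr7:46845554-46845803, plus strand): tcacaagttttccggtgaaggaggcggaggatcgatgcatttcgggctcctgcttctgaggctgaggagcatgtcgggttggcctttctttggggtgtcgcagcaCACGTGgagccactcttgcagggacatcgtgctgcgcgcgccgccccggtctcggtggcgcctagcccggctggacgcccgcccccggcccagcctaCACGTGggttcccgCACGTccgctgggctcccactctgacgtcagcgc
The Ldha window shown, the first of its 2 RefSeq windows, held 5 core matches in 3 separate stretches. Of these stretches 2 were the palindrome CACGTG, which is also the E-box that Myc and other factors bind. The second Ldha window, at chr7:46846832-46847081, held 1 GCGTG match and no CACGTG. Hk2 and Pgk1 held 2 ACGTG matches each, Pfkl 1 GCGTG match, and Tpi1 had neither core in this window. For Pkm, the member that differed least between the libraries in neutrophils, the first of its 2 RefSeq windows held no match and the second held 1.
Pkm (chr9:59656326-59656575, plus strand): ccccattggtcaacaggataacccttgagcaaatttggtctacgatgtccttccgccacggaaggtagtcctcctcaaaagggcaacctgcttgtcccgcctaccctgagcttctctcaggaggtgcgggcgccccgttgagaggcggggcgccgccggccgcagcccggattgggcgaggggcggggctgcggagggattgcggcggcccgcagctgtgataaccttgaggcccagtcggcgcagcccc
All 10 members had at least 1 window, 16 in all, and 13 of the 16 held a core, for 9 of the 10 members. As a share of all 32851 windows of this length, 38.6% held one, with ACGTG in 16.6%, GCGTG in 28.2% and CACGTG in 6.02%. Some windows of the same gene overlapped, as in Aldoa and Eno1, so the same match could be counted in more than 1 window. These shares are per window, and a share per gene was not computed. A match describes these letters only and is neither a binding site nor a cause.

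The libraries held 8464 to 10362 barcodes and 64257802 to 86383509 UMIs, of which 7786 to 9400 cells per library were kept and 89.7% to 92.5% of these fell in exactly 1 class by per-cell marker gates. A class name stands for that gate and no more. Between 96 and 134 barcodes were shared by each pair of libraries, 699 in all. In the order vehicle, ORIN1001, docetaxel, combination, the gates held 4908, 5389, 3761 and 3053 neutrophils, 2017, 826, 1431 and 1320 macrophages, 232, 171, 267 and 333 monocytes, and 993, 922, 1069 and 2289 T cells. Epithelial cells, which the CD45 sort should have removed, numbered 71, 13, 19 and 62, and their CD45 gene Ptprc stood at 0 CPM with ORIN1001 and docetaxel, 0.454 CPM in vehicle and 3.26 CPM in the combination, against 839 to 911 CPM in neutrophils. Levels are given as CPM, the UMIs of a gene per 1000000 UMIs of all cells of a class in a library.

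In neutrophils, all 10 enzymes were lowest in the combination library, next lowest with docetaxel, and within 1.13-fold of vehicle with ORIN1001. Together the 10 genes took 1.57% of all neutrophil UMIs in vehicle, 1.49% with ORIN1001, 1.02% with docetaxel and 0.577% in the combination. The summed level was 15737 CPM in vehicle, 14924 CPM with ORIN1001, 10172 CPM with docetaxel and 5771 CPM in the combination. Against vehicle, the combination stood at a log2 ratio of -1.45 (-1.46 to -1.43), docetaxel at -0.63 (-0.64 to -0.62) and ORIN1001 at -0.08 (-0.08 to -0.07). These contrasts share the vehicle library. Sized by a ratio of at least 1.5-fold, all 10 members were lower in the combination, where 11.7% of the 9376 genes with at least 50 UMIs were. With docetaxel 6 of 10 were past that fold, where 4.03% of 9585 genes were, and with ORIN1001 none was in either direction, where 10.5% of 9939 genes were. The median log2 ratio of the members was -1.64 in the combination, -0.67 with docetaxel and -0.08 with ORIN1001, and that of all genes was 0.02, 0.11 and -0.09. Relative to that median of all genes, all 10 members were past the fold with docetaxel.

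**Figure D1:**
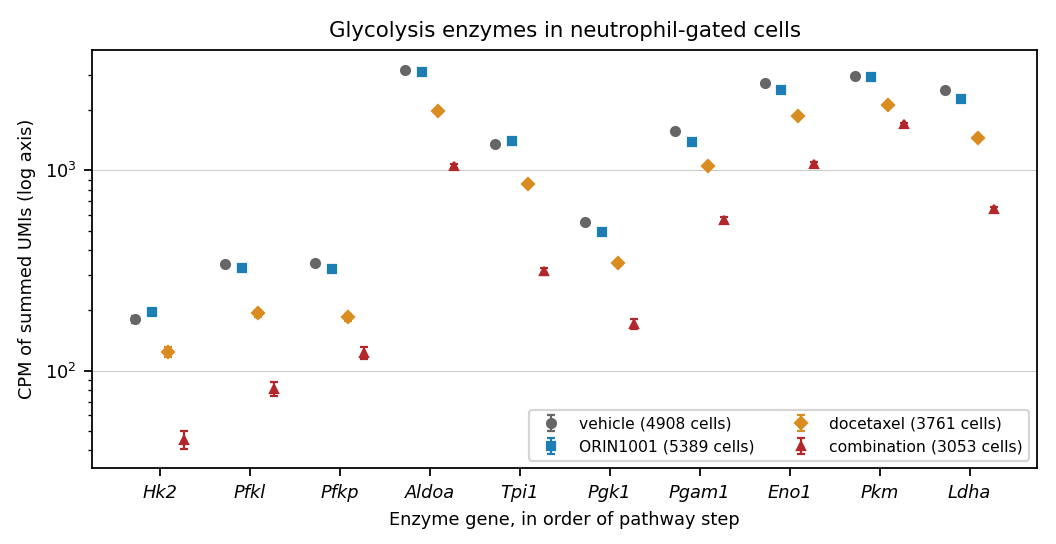
Level of each enzyme in neutrophil-gated cells (CPM of summed UMIs, log axis) in the 4 libraries, with 95% Poisson intervals. In every enzyme the combination library is lowest and the docetaxel library second lowest; Hk2 stands at 45.2 CPM in the combination against 180.2 CPM in vehicle.

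The first steps spend ATP to trap and split the sugar. Hk2, the inducible hexokinase that phosphorylates glucose, stood at 180.2 CPM in vehicle, 195 CPM with ORIN1001, 124 CPM with docetaxel and 45.2 CPM in the combination. Vehicle and ORIN1001 were close to each other, and the combination was 3.99-fold below vehicle, with a log2 interval of -2.16 to -1.83. Pfkl, the liver-type subunit of phosphofructokinase, the committed step, stood at 340.1, 327, 194 and 80.9 CPM in the same order. Its combination level was at -2.07 (-2.19 to -1.95), near that of Hk2. Pfkp, the platelet-type subunit of the same enzyme, stood at 346, 322, 184 and 123 CPM. It was the member furthest below vehicle with docetaxel, at -0.91 (-0.98 to -0.83), and was at -1.49 (-1.60 to -1.39) in the combination, so the distance between docetaxel and the combination was smaller for Pfkp than for Pfkl. Aldoa, the aldolase that splits the sugar into 2 trioses, stood at 3176, 3099, 1971 and 1054 CPM, at -1.59 (-1.63 to -1.56) in the combination. Tpi1, which interconverts the trioses, stood at 1357, 1396, 858 and 314 CPM. At -2.11 (-2.18 to -2.05) it was the member with the largest ratio between the combination and vehicle, a 4.33-fold difference.

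The later steps return ATP. Pgk1, phosphoglycerate kinase, the first of them to form ATP, stood at 550.2 CPM in vehicle, 494 CPM with ORIN1001, 344 CPM with docetaxel and 171 CPM in the combination, at -1.69 (-1.77 to -1.60). Pgam1, the mutase that moves the phosphate, stood at 1569, 1392, 1056 and 568 CPM, and at -1.47 (-1.51 to -1.42). Eno1, the enolase, stood at 2735, 2513, 1872 and 1077 CPM, and at -1.34 (-1.38 to -1.31). For these 3 enzymes vehicle was highest, followed by ORIN1001, docetaxel and the combination, whereas Hk2 and Tpi1 were highest with ORIN1001. Pkm, pyruvate kinase, which makes pyruvate and ATP, stood at 2974, 2910, 2115 and 1700 CPM. It was the member that differed least, at -0.81 (-0.83 to -0.78) in the combination and -0.49 (-0.51 to -0.47) with docetaxel. Ldha, which turns pyruvate into lactate, stood at 2510 CPM in vehicle, 2276 CPM with ORIN1001, 1455 CPM with docetaxel and 638 CPM in the combination, at -1.98 (-2.02 to -1.93). Ldha and Pkm act one after the other, and their ratios in the combination lay apart by more than their counting intervals.

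Against docetaxel alone, the combination was past 1.5-fold lower for 9 of 10 members, where 7.50% of genes were, with a median of -0.96. The exception was Pkm at -0.31 (-0.35 to -0.28), and the largest were Hk2 at -1.46 and Tpi1 at -1.45. Against ORIN1001 alone all 10 were past the fold, where 10.3% of genes were, with a median of -1.54. For every member the log2 ratio of the combination to vehicle was further below 0 than the sum of the ratios of the single drugs. The excess ran from -0.28 (-0.32 to -0.25) for Pkm and -0.49 for Pfkp to -1.49 for Tpi1 and -1.57 (-1.76 to -1.39) for Hk2. The share of all genes with an excess below 0 was not computed. In macrophages the excess was below 0 as well, from -0.18 (-0.28 to -0.09) for Pfkl to -0.72 (-0.86 to -0.58) for Hk2. In epithelial cells it ran from -0.17 (-0.45 to 0.10) for Eno1 to -1.96 for Pfkl. In monocytes it was above 0, from 0.09 (-0.29 to 0.48) for Hk2 to 0.40 (0.30 to 0.50) for Tpi1. Each excess rests on the same 4 libraries, and a difference between animals cannot be told apart from one between treatments.

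Other measures of these neutrophils differed between the libraries along with the enzymes. The summed level of the 8 neutrophil markers, led by S100a8 and S100a9, was 75630 CPM in vehicle, 86418 CPM with ORIN1001, 40026 CPM with docetaxel and 33340 CPM in the combination. Macrophage markers in the same cells summed to 302, 142, 386 and 447 CPM, T cell markers to 27.7, 24.4, 34.3 and 60 CPM, and epithelial markers to 56.0, 29.0, 66.2 and 107 CPM. The median UMIs of a neutrophil were 2932, 3520, 2571 and 2223. The part of these in the enzyme levels was not tested. With every cell thinned to 1500 UMIs, the middle neutrophil carried 21 enzyme UMIs in vehicle, 20 with ORIN1001, 11 with docetaxel and 7 in the combination. In vehicle 30.3% of neutrophils had at least 30 of them and 19.7% under 10, whereas in the combination 2.28% had at least 30 and 66.4% under 10.

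The rest of the pathway was read from lists of named genes. Of 9 other glycolysis enzymes with enough UMIs in neutrophils, 5 were past 1.5-fold lower in the combination and none higher. They were Eno2 at -3.01, Aldoc at -2.86, Eno1b at -0.77 and the enzymes of the remaining steps, Gpi1 and Gapdh. Gpi1, the isomerase between hexokinase and phosphofructokinase, stood at 891 CPM in vehicle and 243 CPM in the combination, at -1.87 (-1.94 to -1.80). Gapdh, which oxidises the triose, stood at 1278 and 438 CPM, at -1.55 (-1.60 to -1.49). Hk1 and Hk3, other hexokinases, were at -0.36 and 0.26, inside the fold. Of 9 transport and flux genes 6 were past the fold, led by the glucose transporter gene Slc2a3 at -2.33, the pyruvate dehydrogenase kinase Pdk1 at -1.87 and the lactate exporter Slc16a3 at -1.31. Slc2a1, the main glucose transporter gene, stood at 428 CPM against 982 CPM, at -1.20 (-1.25 to -1.14), and Pfkfb4 at 0.06. None of the 17 genes of pyruvate entry and the citric acid cycle was past 1.5-fold in either direction, with a median of -0.19 and Mdh2 at 0.49. In the pentose phosphate pathway 2 of 7 were lower, G6pdx at -0.81 and Pgls at -0.59. Hif1a, the gene of the HIF-1α subunit, stood at 213 CPM against 393 CPM, at -0.89 (-0.97 to -0.81), while its partner Arnt was at -0.11. All 11 HIF target genes outside glycolysis with enough UMIs were past the fold lower, with a median of -2.13, led by Hilpda at -5.11, Adm at -4.99 and Ero1l at -3.25.

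To see how the enzymes varied among neutrophils of 1 library, cells thinned to 1500 UMIs were put in 3 ranges by their UMIs of the 12 listed HIF target genes. These ranges are cuts in a count and not cell types. Cells with at least 3 such UMIs were 61.1% (59.7 to 62.6) of neutrophils in vehicle, 58.6% (57.2 to 59.9) with ORIN1001, 36.8% (35.2 to 38.5) with docetaxel and 13.1% (11.8 to 14.5) in the combination. The same count of HIF target UMIs was reached by 2.74%, 4.40%, 6.82% and 1.76% of NK cells and, in the 3 libraries with enough of them, by at most 3.82% of pDCs. It was reached by 2.54%, 9.43%, 4.85% and 5.98% of conventional DCs and by 11.1%, 10.5%, 8.39% and 7.84% of T cells. Some of these shares rest on few cells, such as 3 of 118 vehicle conventional DCs. Macrophages reached it in 23.5%, 25.6%, 16.7% and 7.79%, and monocytes in 22.8%, 12.3%, 22.1% and 16.6%. Among epithelial cells it was 37.5% in vehicle and 11.1% in the combination, the libraries with enough of them. The share in combination neutrophils thus lay between those of vehicle T cells and combination monocytes. These other classes were thinned to the same depth, from median UMIs of 5035 to 26782 per class and library. How much of each share is free RNA was not tested. The enzymes followed this count within each library. In vehicle they summed to 6089 CPM in cells with 0 HIF target UMIs, 9290 CPM in cells with 1 to 2 and 20216 CPM in cells with 3 or more. In the combination the same ranges held 4093, 5776 and 12218 CPM, below vehicle in each. Docetaxel lay between them with 4574, 7414 and 16162 CPM, and ORIN1001 close to vehicle with 5497, 9070 and 20187 CPM. The top range is open, and its cells averaged 11.3 HIF target UMIs in vehicle, 11.2 with ORIN1001, 8.43 with docetaxel and 5.07 in the combination. With the share of cells in each range set to that of vehicle, the combination's enzyme level would be 9468 CPM and that of docetaxel 12346 CPM, against 15500 CPM in vehicle. Both the number of cells in the top range and the level within each range therefore differed between these libraries.

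**Figure D2:**
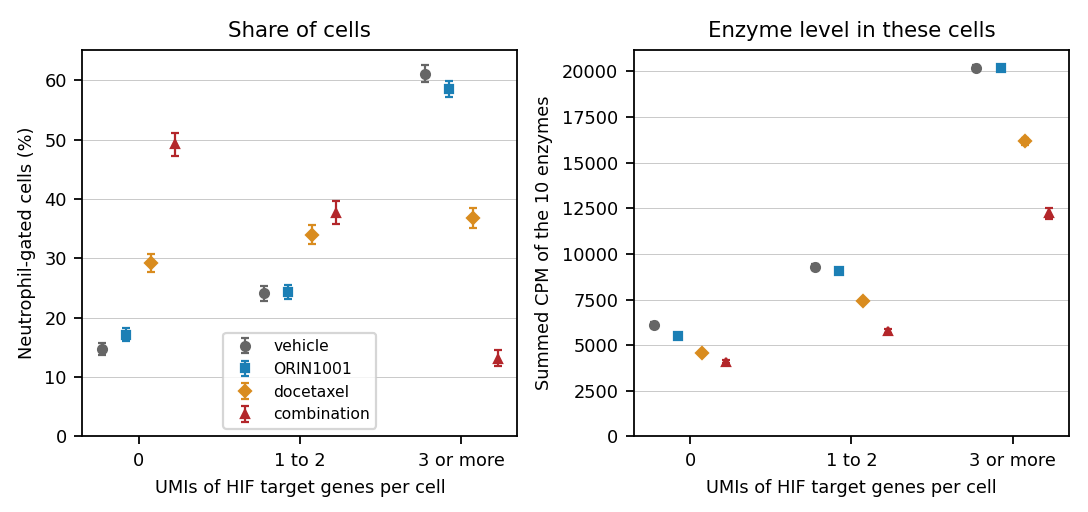
Left, the share of neutrophil-gated cells with 0, 1 to 2, or 3 or more UMIs of HIF target genes at 1500 UMIs per cell, with exact 95% binomial intervals; right, the summed CPM of the 10 enzymes in those cells, with Poisson intervals. The combination has 49.2% of cells at 0 against 14.7% in vehicle, and its enzyme level is the lowest in each of the 3 ranges.

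Single enzymes differed in how steeply they followed the count. In vehicle neutrophils Hk2 stood at 27.6 CPM in cells with 0 HIF target UMIs and 259 CPM in cells with 3 or more, Tpi1 at 323 and 1870 CPM, and Ldha at 739 and 3344 CPM. Pkm ran from 1621 to 3609 CPM, a smaller step. In cells with 0 such UMIs the combination was not the lowest library for Hk2, Pfkp or Pkm. Hk2 stood at 27.6, 35.1, 33.5 and 35.8 CPM in the usual order, and Pfkp at 75.9, 74.8, 60.4 and 82.5 CPM. Pkm stood at 1621, 1635, 1372 and 1396 CPM. No intervals were computed for single enzymes in these ranges, and Hk2 was scarce in these cells. Ldha in those cells still ran from 739 CPM in vehicle to 602, 530 and 425 CPM, and Aldoa from 1349 to 1126, 842 and 726 CPM.

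All classes held these transcripts. In vehicle the summed level was 15737 CPM in neutrophils, 11668 CPM in epithelial cells, 10074 CPM in macrophages, 9431 CPM in monocytes, 6526 CPM in T cells, 5117 CPM in NK cells, 5103 CPM in conventional DCs, 4492 CPM in pDCs and 4114 CPM in mature DCs. In the combination the order was different, with monocytes at 9468 CPM, macrophages at 8114 CPM, epithelial cells at 6691 CPM, conventional DCs at 5906 CPM, T cells at 5903 CPM and neutrophils sixth at 5771 CPM. Each enzyme is compared here only with itself. In vehicle neutrophils were the highest class for 8 of the 10 enzymes, and epithelial cells for Tpi1, at 2015 CPM, and Pgk1, at 1049 CPM. For Pfkl, neutrophils and epithelial cells, at 340.1 and 336 CPM, overlapped in their intervals. In the combination neutrophils were the highest class for none, and monocytes for 8. For Hk2 the monocyte interval overlapped with those of neutrophils and macrophages, and for Pgk1 with that of epithelial cells.

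**Figure D3:**
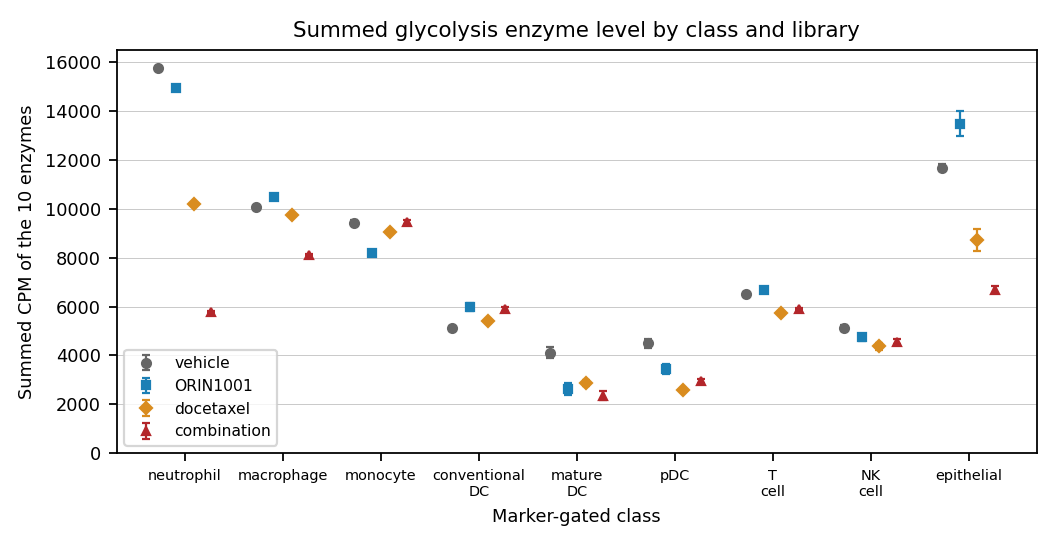
Summed CPM of the 10 enzymes in each marker-gated class and library, with 95% Poisson intervals. In vehicle neutrophils are highest at 15737 CPM; in the combination they stand at 5771 CPM, below monocytes at 9468 CPM.

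Hk2 and Pfkp each had an order of classes of their own. In vehicle Hk2 stood at 71.9 CPM in macrophages, 65.5 CPM in monocytes and 30.2 CPM in conventional DCs, but at 6.72 CPM in T cells, 2.25 CPM in NK cells and 5.39 CPM in pDCs. Those lymphoid and pDC values rest on 43, 3 and 3 UMIs, a level at which free RNA in the droplets cannot be told apart from expression. Pfkp was high in neutrophils at 346 CPM and next in T cells at 229 CPM. Epithelial cells and conventional DCs, both at 179 CPM, and NK cells at 176 CPM overlapped in their intervals, and macrophages stood lower at 63.2 CPM, within the wide interval of B or plasma cells at 52.3 CPM from 6 UMIs. Over the 30 pairs of a class and a library with at least 50 cells, the log2(CPM + 10) of Pfkp had a Pearson r of 0.11 with the mean of the other 9 members, against 0.79 for Pgk1 to 0.96 for Pgam1 among the rest. Once each class's own mean was taken off, over 29 pairs of 8 classes, Pfkp followed the others with r = 0.89, within the range of 0.84 for Hk2 to 0.97 for Ldha. The pairs share libraries and classes, and neutrophils hold the widest range, so these r values are descriptions.

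By the same measure the 10 other genes most like the enzymes in level were Fam162a (r = 0.92), Mif (0.91), Eif4ebp1 (0.90), Pgm1 (0.87), Frrs1, Gys1, Cyb5r1, Apba3, Pgm2 and Gm3839. Within classes they were Mif (0.93), Ndufv3 (0.93), Gm3839 (0.92), Isca1 (0.91), Higd1a (0.91), Fam162a, Fbxo42, Bsg, Apba3 and Pgm1, of 6469 genes compared. Mif encodes a cytokine, Pgm1 and Pgm2 enzymes of the phosphoglucomutase family, Gys1 a glycogen synthase, and Bsg the chaperone of lactate transporters.

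Epithelial cells also had low enzyme levels in the combination. Of the 10 enzymes 8 were past 1.5-fold lower than in vehicle, where 13.7% of 7531 genes were, and 1 of the 8, Hk2, had an interval that reached past 0. The members had a median of -0.79 against -0.02 for all genes. The summed level was 11668 CPM in vehicle, 13471 CPM with ORIN1001, 8712 CPM with docetaxel and 6691 CPM in the combination, a log2 ratio of -0.80 (-0.84 to -0.77) for the last. With docetaxel 3 were past the fold lower, where 22.4% of genes were, and with ORIN1001 1 was higher, where 10.8% were, so these counts lie near the background. Hk2 had under 50 UMIs in the other contrasts. Of the 9 other members, 4 were lower in the combination than with docetaxel, where 14.9% of genes were, and all 9 were lower than with ORIN1001, where 12.7% were. For these last contrasts and for ORIN1001 against vehicle the median of all genes was itself at 0.11, 0.13 and -0.12. Thinned as above, the sums were 10479 CPM in vehicle, from 64 cells, and 7370 CPM in the combination, from 54 cells. Ldha at 1146 and 1025 CPM, Eno1 at 1719 and 1296 CPM and Tpi1 at 2062.5 and 1395 CPM then lay inside the fold. Pfkl, Pfkp, Aldoa and Pgk1 stayed past it, and Pgam1 came past it at 969 and 593 CPM. Hk2, at 0 and 12.3 CPM, was too scarce to read. No intervals were computed for thinned enzymes, and the part of depth was not tested.

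The epithelial pattern was not the same enzyme by enzyme. Pfkl stood at 336 CPM in vehicle, 344 CPM with ORIN1001, 394 CPM with docetaxel and 104 CPM in the combination, at -1.69 (-1.97 to -1.42) against vehicle. Pfkp stood at 179, 167, 142 and 63.5 CPM, and Aldoa at 2089, 2066, 1182 and 864 CPM, at -1.27 (-1.37 to -1.18). For both phosphofructokinase genes the combination lay alone below 3 libraries that overlapped in their intervals, and for Aldoa docetaxel was low as well. Eno1 stood at 1903, 2459, 948 and 1088 CPM and Ldha at 1395, 2243, 659 and 887 CPM, so that both were highest with ORIN1001 and lowest with docetaxel, although the docetaxel and combination levels of Eno1 overlapped in their intervals. Tpi1 stood at 2015, 2012, 1983 and 1185 CPM, with the 3 other libraries level, and Pgk1 at 1049, 1171, 887 and 539.8 CPM. Pgam1 at 1007, 1082, 936 and 716 CPM and Pkm at 1674, 1903, 1564 and 1231 CPM were the members inside the fold, at -0.49 and -0.44. Hk2, with 47, 5, 3 and 16 UMIs, was at -0.71 (-1.63 to 0.13), too few for its direction to be read.

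**Figure D4:**
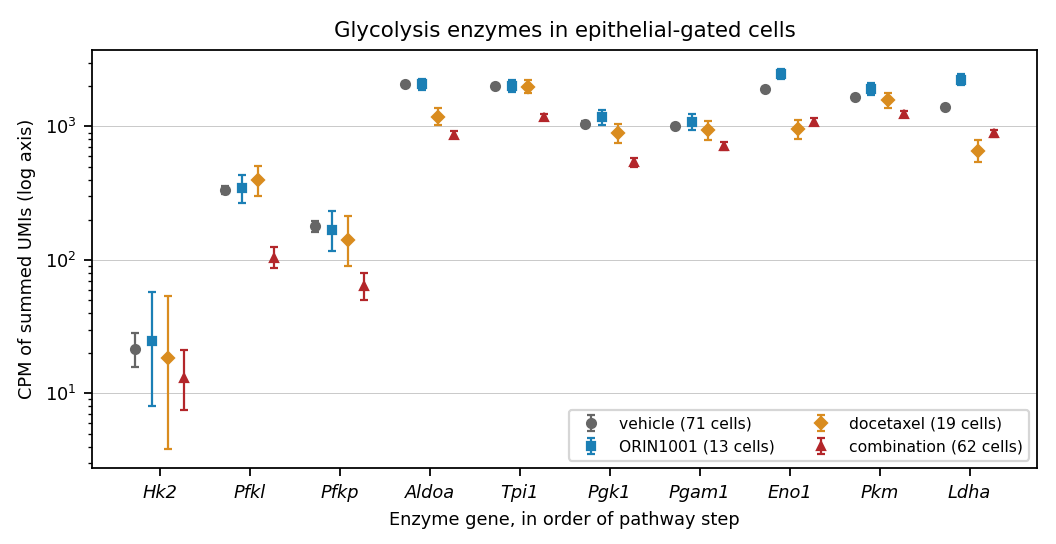
Level of each enzyme in epithelial-gated cells (CPM of summed UMIs, log axis) with 95% Poisson intervals, in libraries with 71, 13, 19 and 62 such cells. Pfkl, Pfkp, Tpi1 and Pgk1 are lowest in the combination, while Eno1 and Ldha have their lowest values with docetaxel, that of Eno1 within the interval of the combination.

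These epithelial cells were few and differed in other ways. Their median UMIs were 26782 in vehicle, 10139 with ORIN1001, 6071 with docetaxel and 10088 in the combination, and their cycling markers summed to 1123, 389, 443 and 690.4 CPM. Neutrophil markers in them summed to 77.6, 39.3, 18.5 and 14.7 CPM, against 75630 CPM in vehicle neutrophils. Dissociation stress genes, which tissue handling raises, were past the fold lower for 8 of 10 in the combination. The part of these in the enzyme levels was not tested. Among other genes of the pathway in the combination, 5 of 9 enzymes were past the fold lower, led by Ldhb at -1.67, Aldoc at -1.56 and Hk1 at -1.08, while Gapdh was at -0.25. Of 6 transport and flux genes 4 were lower, led by Pdk1 at -1.94, Pfkfb3 at -1.40 and Pdk2 at -1.29, and of 10 HIF target genes 8 were, led by Ero1l at -2.88, Egln3 at -2.54 and Ankrd37 at -1.97. Hilpda, the leading HIF target in neutrophils, stood at 18.7 CPM against 14.5 CPM in epithelial cells. Citric acid cycle genes had 2 of 17 past the fold, Sdha at -0.71 and Fh1 at -0.64, and Myc stood higher at 1.12 (0.84 to 1.41).

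Macrophages showed the same direction at a smaller size. The summed level was 10074 CPM in vehicle, 10479 CPM with ORIN1001, 9732 CPM with docetaxel and 8114 CPM in the combination, and all 10 members were below vehicle in the last, with a median of -0.37. Past 1.5-fold was Hk2 alone, where 8.30% of genes were lower. It stood at 71.9, 96.3, 54.7 and 44.5 CPM, highest with ORIN1001, and at -0.69 (-0.79 to -0.60) in the combination. Pgk1 stood at 557, 627, 522 and 409 CPM, and Tpi1 at 989, 1002, 897 and 720 CPM, while Pkm at 1507, 1766, 1554 and 1458 CPM and Pfkp at 63.2, 87.3, 63.4 and 61.4 CPM differed little between vehicle and the combination. Against ORIN1001 the combination was past the fold for Hk2, at -1.12, and Pgk1, at -0.62, where 7.29% of genes were. None was past it for ORIN1001, docetaxel, or the combination against docetaxel, where 7.16%, 8.27% and 7.11% of genes were in either direction. HIF target genes in the same macrophages were past the fold lower for 10 of 12 in the combination, led by Adm at -2.67, Hilpda at -2.22 and Vegfa at -2.09, and none of the 17 citric acid cycle genes was. Neutrophil markers in these macrophages summed to 129, 238, 61.8 and 42.1 CPM, in the same order of libraries as Hk2, and their part was not tested. In macrophages with no HIF target UMI after thinning the enzymes summed to 6844, 6717, 7082 and 6220 CPM, and such cells were 38.7%, 35.8%, 45.1% and 53.1% of the class. Dissociation stress genes were past the fold lower in the combination for 10 of 11 in macrophages, monocytes and T cells alike and for 4 of 11 in neutrophils, and their part in the enzyme levels was not tested.

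Monocytes did not share the pattern. Their summed level was 9431 CPM in vehicle, 8199 CPM with ORIN1001, 9050 CPM with docetaxel and 9468 CPM in the combination, so ORIN1001 and not the combination was lowest. None of the 10 members was past 1.5-fold against vehicle for ORIN1001, docetaxel or the combination, where 7.70%, 9.38% and 13% of genes were in either direction. Ldha stood at 1513, 1237, 1533 and 1574 CPM and Pfkl at 151, 130.0, 162 and 165 CPM. HIF target genes in these monocytes were nonetheless past the fold lower for 6 of 11 in the combination, with a median of -0.65. The split from macrophages rests on the gates, as cells passing the monocyte gate were kept out of the macrophage class. These monocytes held a median of 5 macrophage markers. With every gate raised by 1 marker, 444 of the 1003 would leave the class. With classes from clusters, 12 of 50 monocyte ratios changed sign, although none was past the fold.

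**Figure D5:**
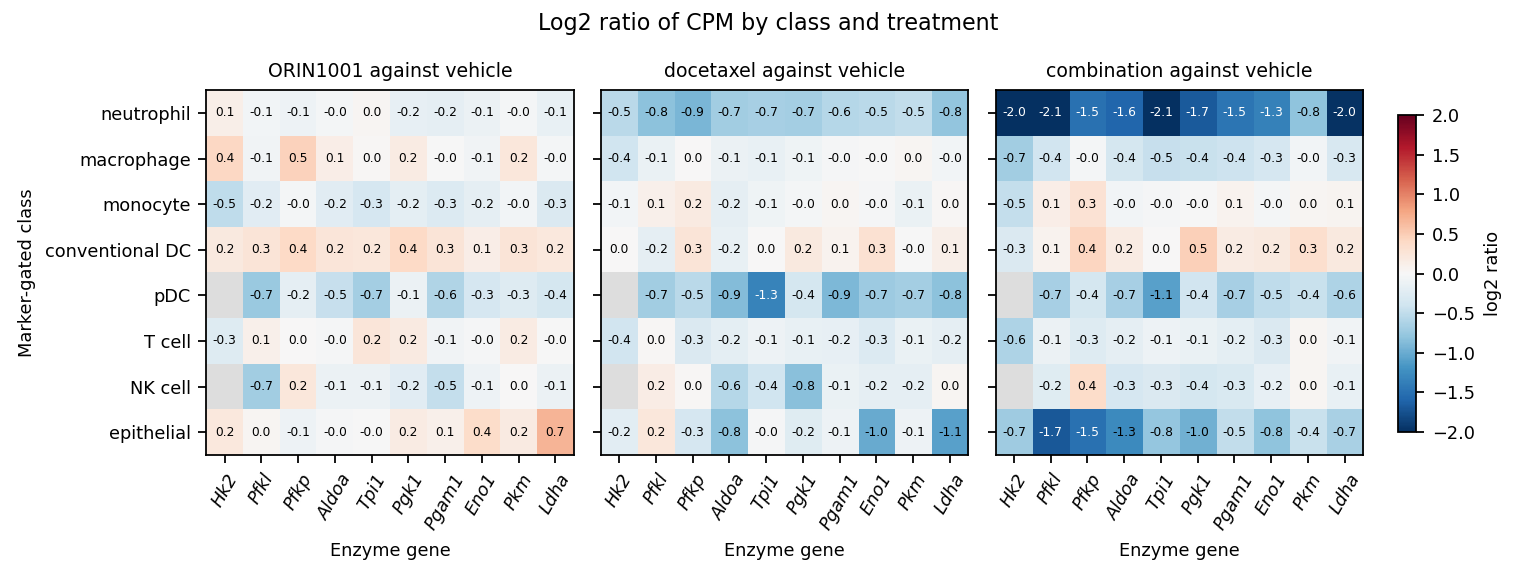
Log2 ratio of CPM of each enzyme in 8 classes, for each treated library against the shared vehicle library; grey marks a gene with under 50 UMIs over both libraries. In the combination the neutrophil row runs from -2.1 to -0.8 and the epithelial row from -1.7 to -0.4, while monocyte and conventional DC rows stay between -0.5 and 0.5.

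T cells had a lower and more even enzyme level, at 6526 CPM in vehicle, 6690 CPM with ORIN1001, 5738 CPM with docetaxel and 5903 CPM in the combination. Of the 10 members Hk2 alone was past the fold lower in the combination, at -0.62 (-1.18 to -0.04), where 6.07% of genes were. It rests on 43 and 71 UMIs, and free RNA cannot be told apart from expression at such a level. Neutrophil markers in these T cells summed to 92.3, 154, 92.4 and 44.2 CPM, and their part was not tested. No member was past the fold for ORIN1001 or docetaxel, where 9.47% and 9.55% of genes were in either direction. In the combination 1 of 10 members was past the fold higher than vehicle in CD8 T cells, where 8.71% of genes were, namely Hk2 on 6 and 45 UMIs. Of 9 members with enough UMIs, 2 were lower in regulatory T cells, where 8.48% of genes were, 2 in conventional CD4 T cells, where 5.81% were, and 3 in gamma-delta T cells, where 7.84% were. These were Pgam1 and Tpi1 in regulatory, Tpi1 and Pfkp in conventional CD4, and Pgk1, Tpi1 and Eno1 in gamma-delta T cells. Differences between the subsets were not tested. CD8 T cells stood at 5427, 6135, 5190 and 5950 CPM, with Pkm at 0.43 (0.36 to 0.50) and Tpi1 at 0.38 (0.26 to 0.50) against vehicle. Regulatory T cells stood at 7852, 8285, 7335 and 6127 CPM, with Pgam1 at -0.81 (-1.03 to -0.59) and Tpi1 at -0.70 (-0.89 to -0.51). Conventional CD4 T cells stood at 6878, 6115, 5442 and 5588 CPM and gamma-delta T cells at 6875, 6111, 6176 and 5043 CPM. Cycling T cells held more of these transcripts than other T cells in every library, with 8113 against 6009 CPM in vehicle and 7669 against 5025 CPM in the combination. Cycling macrophages were instead below other macrophages in vehicle, with ORIN1001 and with docetaxel. They stood at 9747, 10184 and 9710 CPM there, against 10312, 10694 and 9759 CPM. In the combination they were above them, at 8342 against 7897 CPM. Cycling markers in regulatory T cells summed to 696 CPM in vehicle and 98.4 CPM in the combination, and in CD8 T cells to 920.2 and 789 CPM, and their part was not tested.

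The smaller classes differed in direction. In pDCs 7 of the 9 members with at least 50 UMIs were past 1.5-fold lower with docetaxel, where 4.80% of 4962 genes were, 5 in the combination, where 4.46% were, and 3 with ORIN1001, where 8.02% were. Their summed level was 4492 CPM in vehicle, 3435 CPM with ORIN1001, 2593 CPM with docetaxel and 2969 CPM in the combination, from 60, 25, 112 and 157 cells, so vehicle was high and docetaxel lowest. Tpi1 stood at 343, 213, 136 and 161 CPM in them and was the member furthest below vehicle with docetaxel, at -1.33 (-1.64 to -1.02), while Hk2, left out of that count, had 3, 1, 2 and 0 UMIs. Neutrophil markers in the pDCs summed to 73.7, 97.9, 24.0 and 26.4 CPM, lower with docetaxel and in the combination, as the enzymes were, and their part was not tested. Conventional DCs stood at 5103, 5989, 5418 and 5906 CPM. In the combination 9 of 10 members were above vehicle but 0 of 10 past 1.5-fold higher, where 5.22% of genes were, with Pgk1 at 220.2, 290, 251 and 306 CPM. NK cells stood at 5117, 4734, 4369 and 4555 CPM. Mature DCs, with 23, 14, 60 and 26 cells, stood at 4114, 2620, 2882 and 2359 CPM. B or plasma cells were absent from the combination, where 0 of 8305 kept cells passed the gate, and numbered 26, 31 and 11 in the other libraries, so no contrast is given.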

How the data were processed

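Single-cell RNA libraries of CD45-sorted tumour cells, 1 per treatment, were analysed from filtered matrices of UMI counts per gene and cell. The authors made these counts with Cell Ranger 5.0.1, per the file headers, and the mm10 build and Seurat 4.0.1 are named in the submitters' processing notes. The annotation release is not given in the sources used here. Cells with at least 200 genes and under 10% mitochondrial UMIs were kept, and the cells with the highest Scrublet scores, 0.8% per 1000 cells of a library, were removed as doublets, because the automatic threshold marked 0 cells with ORIN1001. Classes required between 2 and 4 detected markers of their list, and cells passing no gate or more than 1 were left out. Raw UMIs were summed per class and library and scaled to CPM. Intervals of a CPM are exact Poisson intervals, those of a ratio are exact for a ratio of 2 Poisson counts, and those of a share are exact binomial (Clopper-Pearson), all at 95%. PCR duplicates were already merged by the UMIs. A ratio entered a count where both libraries together held at least 50 UMIs, and was called at 1.5-fold. All members were named, with the 3 genes of a list that had the largest ratio and the 10 genes outside the lists most like the members by Pearson r of log2(CPM + 10) among genes with a mean of at least 20 CPM. Other list genes given with a value, such as Gapdh, Gpi1, Hk3, Slc2a1 and Hif1a, were chosen after their values were seen. Thinning drew 1500 UMIs per cell with seed 0 and left out 365, 326, 412 and 638 shallower gated cells. The ratio step was tested on simulated Poisson counts for the neutrophils of the combination and vehicle, with 200 of 9356 genes changed. Of these 96.5% were recovered, 2.00% of the others passed the fold and 95.5% of intervals held the true ratio. No spread between cells, animals or libraries was simulated, so these shares cover counting error only. Members, gene lists and tests were chosen with earlier results of these data known. RefSeq promoters (GRCm38.p6) were matched by symbol for all 10 members. Alternatives covered cell classes from clusters, doublets, the cell filter, 2 scalings, the weight of cells, the UMI minimum, the fold and thinning. Python 3.11.15, numpy 2.4.6, pandas 2.3.3, scipy 1.17.1, scanpy 1.11.5, leidenalg 0.10.2 and matplotlib 3.10.9 were used.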

Additional observations from a re-analysis of the deposited data

Results flagged for a closer look

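Ldha went in opposite directions in a pair of classes under the same contrast, ORIN1001 against vehicle. In epithelial cells it stood at a log2 ratio of 0.69, from 13 cells with ORIN1001 and 71 in vehicle. In mature DCs it stood at -1.16, from 14 and 23 cells. Each class had 1 library per treatment, and the difference was not tested.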

How the results depend on the processing

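No paired analysis was possible because each treatment was 1 library with no replicate number, and for the same reason leaving out a replicate was not run. Of 200 alternative values of 25 counts, 184 stayed within 1.5 times the value reported, and no enzyme past the fold changed sign in neutrophils, macrophages, monocytes, T cells or epithelial cells. Thinned levels were not part of that check of signs.

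At 2-fold in place of 1.5-fold, the count for docetaxel against vehicle in neutrophils went from 6 to 0, and for the combination against docetaxel from 9 to 5, and the combination counts went, in macrophages, against vehicle from 1 to 0 and against ORIN1001 from 2 to 1, in T cells against vehicle from 1 to 0, and in epithelial cells from 8 to 3 against vehicle, and from 4 to 2 against docetaxel. For ORIN1001 in epithelial cells it went from 1 to 0. Centred on the median gene, the docetaxel count in neutrophils was 10. With each cell weighing the same, 4 enzymes were past the fold for ORIN1001 in epithelial cells, and in T cells 1 was for ORIN1001, docetaxel, and the combination against docetaxel and against ORIN1001. The last was also 1 with classes from clusters and with no doublet removal.

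Thinned to 1500 UMIs, summed levels were 15500 CPM in vehicle and 9803 CPM in docetaxel neutrophils, 10132, 9854 and 7806 CPM in vehicle, docetaxel and combination macrophages, and 5902, 5828, 5120.43 and 4995 CPM in T cells of the 4 libraries. In epithelial cells they were 10479 CPM in vehicle and 7370 CPM in the combination, the libraries with enough of them. Without thinning, enzyme levels in neutrophils with 0, 1 to 2, and 3 or more HIF target UMIs were 4879, 6647 and 17980.1 CPM in vehicle, 4430.44, 5999 and 17272.5 CPM with ORIN1001, 3949, 5639 and 13492 CPM with docetaxel, and 3683, 4958.5 and 9240.48 CPM in the combination. The cause of these shifts was not tested. Few UMIs widen the intervals in epithelial cells, mature DCs and B or plasma cells.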

Other observations

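In the few B or plasma cells the enzymes summed to 3313 CPM in vehicle, 2727 CPM with ORIN1001 and 1006 CPM with docetaxel, and Hk2 had 0 UMIs in each of these libraries. In macrophages gated as cycling, Hk2 stood at 54.4 CPM in vehicle, 72.1 CPM with ORIN1001, 49.4 CPM with docetaxel and 38.1 CPM in the combination, below the 84.7, 114, 61.1 and 50.5 CPM of the other macrophages in each library. Hk3, a myeloid hexokinase outside the 10 genes, was higher in macrophages of the combination than of vehicle, at a log2 ratio of 1.83.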
